A study of Mus musculus with 7 samples.

Results

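Pericytes wrap the smallest vessels of the brain, and the genes that mark them were measured here in vascular fragments after an injection of PDGF-CC. The 10 genes described are Pdgfrb, Cspg4, Anpep, Kcnj8, Abcc9, Rgs5, Atp13a5, Higd1b, Ndufa4l2 and Vtn. Each was taken with its brightest probe set among those annotated with that symbol alone. All 10 had such a probe set, out of 22180 genes on the array with one, and all 10 were above the filter on dim probe sets (a mean log2 value of 4.145, the 30th percentile), as were 15582 genes in all. Rgs5 had 2 probe sets and the other genes 1 each.

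Fragments were prepared from brains of female mice, named C57BL/6N in the series text and C57BL/6 in the sample labels, at 12 weeks of age. PDGF-CC was injected into the cerebral ventricles of 1 group (4 arrays), and phosphate-buffered saline (PBS) into the other (3 arrays), and all mice were killed 4 h later. No genotype or transgene is named, and no dose is given in the sources used here. Nor do the labels say that every array held RNA of a separate mouse, so the p-values reflect the variation among these 7 arrays, some of which could be technical. Differences are PDGF-CC minus PBS on the log2 scale.

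Pericytes share the basement membrane with endothelial cells, which secrete PDGF-B. This ligand binds PDGFR-beta, encoded by Pdgfrb, and holds pericytes on the vessel, whereas PDGF-CC acts through PDGFR-alpha. In the brain, pericytes help to form the blood-brain barrier, and their potassium channels take part in the control of capillary flow. The remaining marker genes encode surface proteins, a regulator of G protein signalling, mitochondrial proteins and a secreted protein.

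The description field numbers the arrays from 1 to 7 across both groups. PDGF-CC arrays 1, 2, 3 and 4 carry numbers 1, 2, 5 and 6, and PBS arrays 1, 2 and 3 carry numbers 3, 4 and 7. What these numbers stand for is not stated. In a principal component analysis, PDGF-CC array 1 was the most extreme on component 1 (28.5% of variance) and PBS array 2 on component 2 (23.3%), so results are also given without them. All 17 measured endothelial markers, all 29 other measured pericyte genes and all 10 measured choroid plexus markers were above the filter, as were 7 of 10 neuronal and 7 of 9 measured oligodendrocyte markers. In whole fragments, fewer pericytes and less RNA per pericyte cannot be told apart.

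Most pericyte marker genes had lower means in the PDGF-CC group, with the lowest values in the arrays numbered 1 and 2, but none of the 10 passed the test. Differences were negative for 9 of 10 genes and ran from -0.38 (Ndufa4l2) to +0.07 (Cspg4), with a median of -0.26. Over all 17734 tested probe sets the median was -0.004, and 51.6% were negative. By limma with Benjamini-Hochberg adjustment, 0 of the 10 genes had an adjusted p under 0.05, with values between 0.769 and 0.951, against 0.0% of all tested probe sets (0 of 17734). At an unadjusted p under 0.05, 2 of the 10 (Kcnj8 and Abcc9) were lower and 0 higher, beside 3.41% of tested probe sets lower and 2.63% higher. That count of 2 became 1 without PDGF-CC array 1, 2 or 3 or PBS array 1 or 3, and 4 without PDGF-CC array 4, with between 2.44% and 3.46% of tested probe sets lower in those fits. It was 6 when the arrays numbered 1 to 4 and those numbered 5 to 7 were treated as blocks, a fit in which 5.06% of tested probe sets were lower and 3.6% higher. A difference of -0.3 or lower was found for 5 of the 10, against 3.44% of tested probe sets. These 5 (Anpep, Abcc9, Atp13a5, Higd1b and Ndufa4l2) lay between percentiles 81.9 and 98.2 of the spread within groups. A wide spread makes such a cut easier to reach, so the 2 shares are not on an equal footing. The 5 also varied together over the arrays (Pearson r from 0.74 to 0.97) and are not separate observations.

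**Figure D1:**
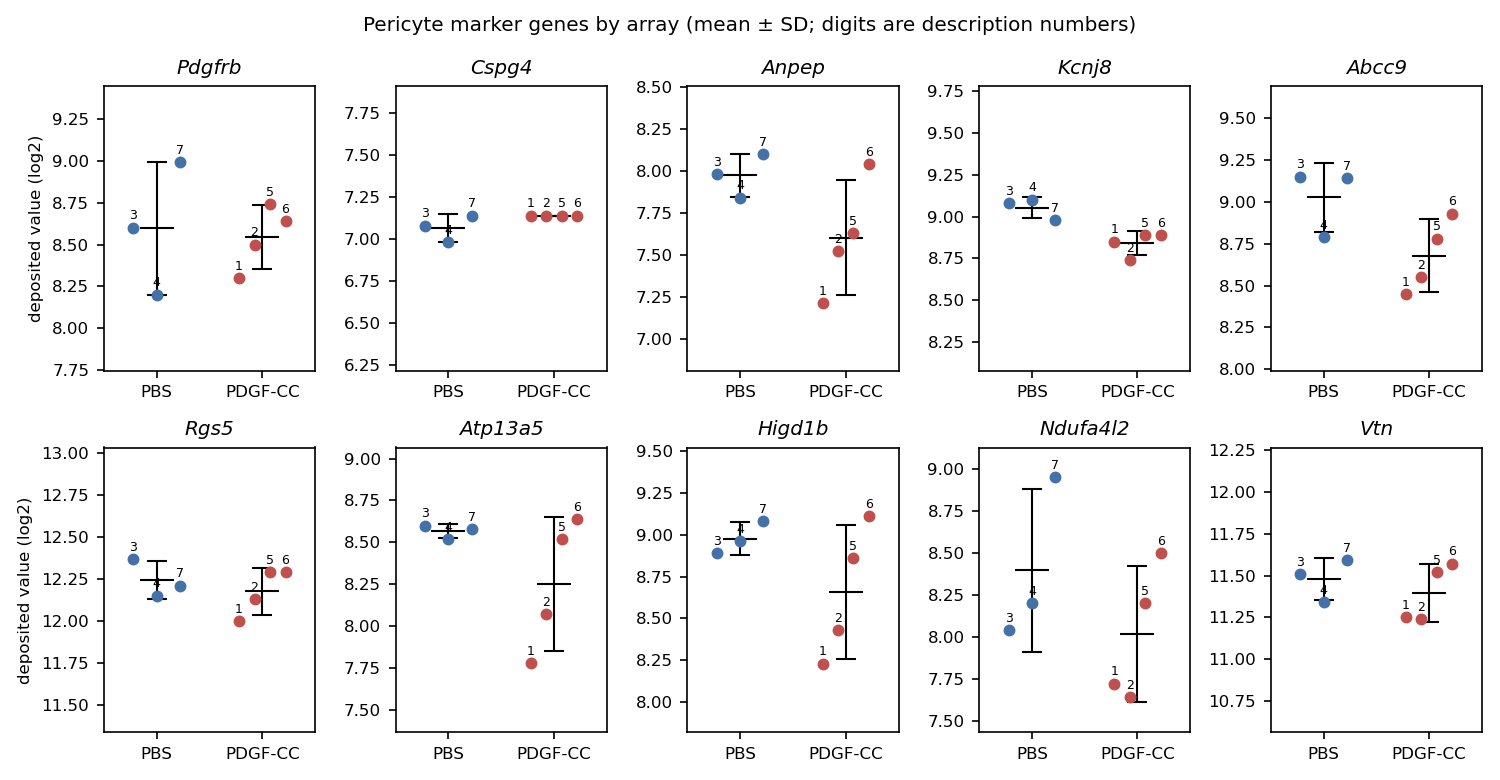
Deposited log2 value (vertical axes, each spanning the same log2 range) of each pericyte marker gene in every PBS array (blue, n = 3) and PDGF-CC array (red, n = 4). Bars are mean ± SD and digits are description numbers; in Atp13a5, Higd1b, Anpep and Ndufa4l2 the PDGF-CC arrays numbered 1 and 2 lie below all PBS arrays, and array 6 lies within or above the PBS values.

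Pdgfrb, the receptor gene itself, showed no difference beyond its spread. Its values were 8.30, 8.50, 8.74 and 8.64 in PDGF-CC arrays 1 to 4 and 8.60, 8.20 and 8.99 in PBS arrays 1 to 3. The groups overlapped, and the PBS arrays held both the lowest and the highest value. The difference was -0.05 ± 0.19 (SE, n = 4 and 3), with a 95% confidence interval from -0.50 to +0.40 (limma adjusted p = 0.951). It was +0.14 without PBS array 3, -0.25 without PBS array 2 and -0.17 without both outlying arrays.

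Cspg4 encodes the NG2 proteoglycan, a surface protein of pericytes and of oligodendrocyte precursors. It was the single gene of the 10 with a positive difference, +0.07 ± 0.053 (interval -0.06 to +0.19). All 4 PDGF-CC arrays and PBS array 3 held exactly the same value, 7.14, while PBS arrays 1 and 2 were at 7.08 and 6.98. Of all tested probe sets, 6.03% had the same value in 5 or more arrays, and the origin of such equal values was not tested. A difference at Cspg4 therefore rests on 2 PBS arrays.

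Anpep encodes aminopeptidase N (CD13), an enzyme on the pericyte surface. PDGF-CC arrays 1 to 4 were at 7.21, 7.52, 7.63 and 8.04, and PBS arrays at 7.98, 7.84 and 8.10. The first 3 PDGF-CC arrays lay below every PBS array, and array 4 lay within the PBS range. The difference was -0.375 ± 0.18, with an interval from -0.81 to +0.06 (limma adjusted p = 0.769). Without PDGF-CC array 1 it was -0.24, and without both outlying arrays -0.31.

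Kcnj8 and Abcc9 encode the pore (Kir6.1) and the regulatory subunit (SUR2) of the ATP-sensitive potassium (KATP) channel, which couples the energy state of the cell to its membrane potential. Kcnj8 was the single gene of the 10 in which every PDGF-CC array lay below every PBS array, as in 2.5% of tested probe sets (groups without overlap in either direction made up 4.3%). PDGF-CC arrays were at 8.85, 8.74, 8.89 and 8.89, and PBS arrays at 9.08, 9.10 and 8.98. The difference was -0.21 ± 0.061, a ratio of 0.862, with an interval from -0.36 to -0.07 (unadjusted p = 0.00928, adjusted p = 0.769 by limma). It was small, and between -0.25 and -0.18 when any single array was left out. Within description numbers 1 to 4 it was -0.30, and within 5 to 7 -0.09.

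Abcc9 showed a larger difference with more spread. It was at 8.45, 8.55, 8.78 and 8.93 in PDGF-CC arrays 1 to 4 and at 9.15, 8.79 and 9.14 in PBS arrays 1 to 3. PBS array 2 lay inside the PDGF-CC range, and the other PBS arrays lay above it. The difference was -0.35 ± 0.14 (interval -0.69 to -0.01, unadjusted p = 0.0437, adjusted p = 0.769 by limma). Without both outlying arrays it was -0.39 for Abcc9 and -0.19 for Kcnj8.

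The promoters of this gene pair are shown because the genes are neighbours in the RefSeq gene order, lie on the same strand and encode 1 channel. Those of Atp13a5 and Anpep follow as a pair with parallel values over the arrays (Pearson r = 0.92), though not the closest pair. Abcc9 and Anpep were at 0.93. Higd1b was at 0.97 with Atp13a5 and 0.94 with Anpep, but its promoter was not among those searched below. The 250 bases before each start are given from RefSeq (GRCm38.p6), 5′ to 3′ on the strand of the gene, with capitals marking matches to the motifs named below them.
Kcnj8, chr6:142571615-142571864, minus strand: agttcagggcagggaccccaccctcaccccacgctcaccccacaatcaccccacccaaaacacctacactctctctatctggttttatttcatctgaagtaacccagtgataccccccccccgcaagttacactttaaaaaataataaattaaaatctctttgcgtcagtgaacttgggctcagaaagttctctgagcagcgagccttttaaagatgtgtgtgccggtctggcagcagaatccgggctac
Abcc9, chr6:142702275-142702524, minus strand: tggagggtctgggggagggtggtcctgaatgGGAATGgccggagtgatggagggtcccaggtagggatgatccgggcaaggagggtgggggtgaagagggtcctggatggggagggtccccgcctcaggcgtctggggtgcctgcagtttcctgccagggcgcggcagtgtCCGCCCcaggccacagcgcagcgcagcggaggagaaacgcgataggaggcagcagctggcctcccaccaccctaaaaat
Atp13a5, chr16:29378733-29378982, minus strand: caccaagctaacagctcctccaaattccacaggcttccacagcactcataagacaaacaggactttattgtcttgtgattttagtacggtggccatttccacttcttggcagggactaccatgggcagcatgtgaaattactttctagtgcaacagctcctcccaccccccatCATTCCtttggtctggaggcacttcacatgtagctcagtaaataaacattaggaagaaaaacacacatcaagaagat
Anpep, chr7:79848211-79848460, minus strand: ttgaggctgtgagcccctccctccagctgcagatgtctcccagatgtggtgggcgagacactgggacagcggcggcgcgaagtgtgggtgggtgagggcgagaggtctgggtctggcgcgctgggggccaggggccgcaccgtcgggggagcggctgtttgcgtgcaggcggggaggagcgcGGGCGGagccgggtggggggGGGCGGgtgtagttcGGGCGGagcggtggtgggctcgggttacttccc

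Promoters of 7 of the 10 genes were searched on both strands for 6 motifs, and no match overlapped another in the 250 bases before each start. Those of Pdgfrb, Higd1b and Ndufa4l2 were not among the promoters searched. The TEAD-type motif GGAATG was present in 3 of 7 (Abcc9, Atp13a5 and Vtn), and in 12.6% of all 32851 promoters. The GC box GGGCGG was present in 3 of 7 (Cspg4, Anpep and Abcc9), and in 32.7% of all promoters. No match was found in the 7 for the RBPJ-type motif GTGGGAA (5.42% of all promoters), the FOX-type motif TGTTTAC (3.17%), the hypoxia-type motif ACGTG (16.6%) or the MEF2-type motif CTAAAAATA (0.469%). Kcnj8 and Abcc9 differed in base composition, with 49.2% and 66.8% G and C against a median of 52.4% over all promoters. A match describes letters and does not show a bound site.

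Rgs5, which speeds the shut-off of G protein signals and is among the most used mural cell markers, differed little. On its brighter probe set PDGF-CC arrays were at 12.00, 12.13, 12.29 and 12.29, and PBS arrays at 12.37, 12.15 and 12.21. PDGF-CC arrays 1 and 2 lay below every PBS array and the other 2 within the PBS range, and the difference was -0.07 ± 0.093 (interval -0.29 to +0.15, limma adjusted p = 0.866). Its other probe set gave -0.08 ± 0.11, with PDGF-CC array 1 lowest at 11.57 and the PBS arrays between 11.90 and 11.95.

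Atp13a5, which encodes a P5-type transport ATPase found in brain pericytes, separated the PDGF-CC arrays from each other. They were at 7.78, 8.07, 8.52 and 8.64, while PBS arrays were at 8.60, 8.52 and 8.58. The SD of the PDGF-CC group was 0.399 and that of the PBS group 0.0442, and PDGF-CC array 3 held exactly the value of PBS array 2. The difference was -0.32 ± 0.20 (interval -0.80 to +0.17, limma adjusted p = 0.770). It was -0.16 without PDGF-CC array 1, -0.44 without PDGF-CC array 4 and -0.18 without both outlying arrays.

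Higd1b and Ndufa4l2 encode small proteins of mitochondria. Higd1b followed Atp13a5, with 8.23, 8.43, 8.86 and 9.11 in PDGF-CC arrays 1 to 4 and 8.89, 8.96 and 9.08 in PBS arrays. Its highest and its lowest value were both from PDGF-CC arrays, and the difference was -0.32 ± 0.21 (interval -0.81 to +0.17). It was -0.18 without PDGF-CC array 1, -0.47 without PDGF-CC array 4 and -0.19 without both outlying arrays. Ndufa4l2, a relative of the cytochrome oxidase subunit Ndufa4 that is known as a target of hypoxia-inducible factors, was at 7.72, 7.64, 8.20 and 8.50 in PDGF-CC arrays and at 8.04, 8.20 and 8.95 in PBS arrays. It had the widest range of the 10 genes, 1.31, and its difference of -0.38 ± 0.29 (interval -1.06 to +0.29) was -0.11 without PBS array 3 and -0.56 without PBS array 1.

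Vtn encodes vitronectin, an adhesive protein that pericytes secrete into the vessel wall. PDGF-CC arrays were at 11.25, 11.24, 11.52 and 11.57 and PBS arrays at 11.51, 11.34 and 11.59. The first 2 PDGF-CC arrays lay below all PBS arrays and the other 2 within their range. The difference was -0.08 ± 0.11 (interval -0.34 to +0.18, limma adjusted p = 0.856). With quantile normalization repeated it was -0.02, and over all alternatives it lay between -0.15 and -0.01.

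**Figure D2:**
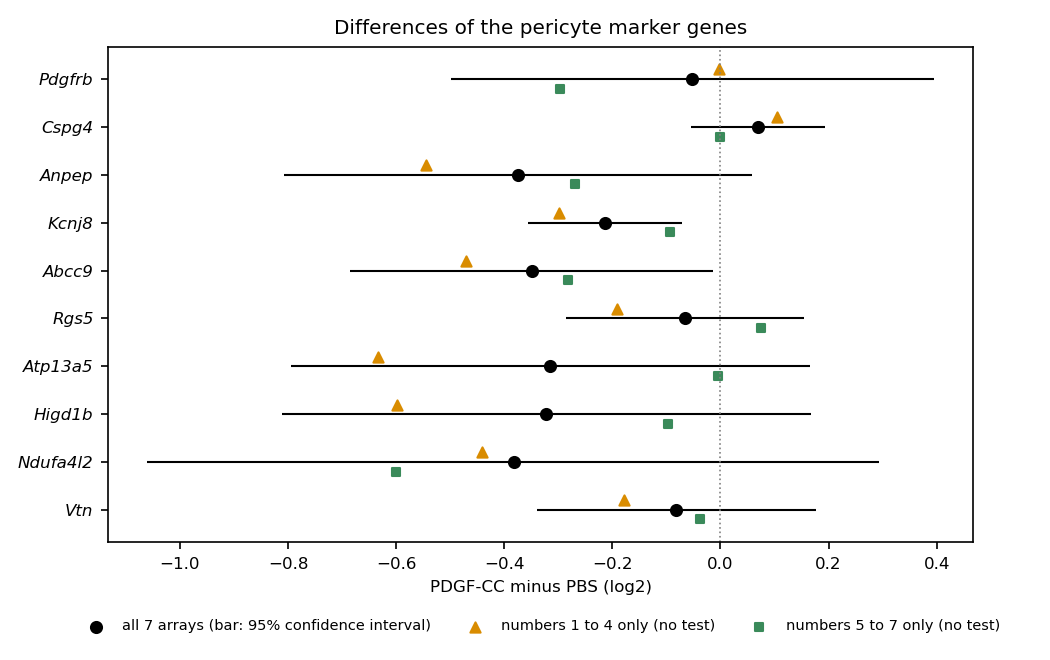
PDGF-CC minus PBS (log2, horizontal axis) for each pericyte marker gene: black points with 95% confidence intervals from limma over all 7 arrays, triangles within description numbers 1 to 4 and squares within 5 to 7. The intervals of Kcnj8 (-0.36 to -0.07) and Abcc9 (-0.69 to -0.01) alone exclude 0, before adjustment; the squares of Atp13a5, Higd1b, Rgs5 and Vtn lie closer to 0 than their triangles.

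The lower values of most of these genes were spread unevenly within the PDGF-CC group and there ran with the description numbers. In 8 of the 10 genes, all but Pdgfrb and Cspg4, PDGF-CC arrays 1 and 2 were lower than all other arrays, as they were in 10.7% of tested probe sets, a pattern noticed in the values themselves. PDGF-CC array 1 lay below every PBS array in 8 genes and array 2 in 8 (29.2% and 27.5% of tested probe sets), but array 3 in 4 and array 4 in 1 (19.0% and 19.2%). With each gene centred on its mean, the mean of the 10 genes was -0.33 and -0.22 in PDGF-CC arrays 1 and 2, +0.11 and -0.01 in PBS arrays 1 and 2, +0.04 and +0.15 in PDGF-CC arrays 3 and 4, and +0.26 in PBS array 3. The mean thus followed the description numbers in the PDGF-CC group, but not in the PBS group, where the array numbered 4 was lowest.

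**Figure D3:**
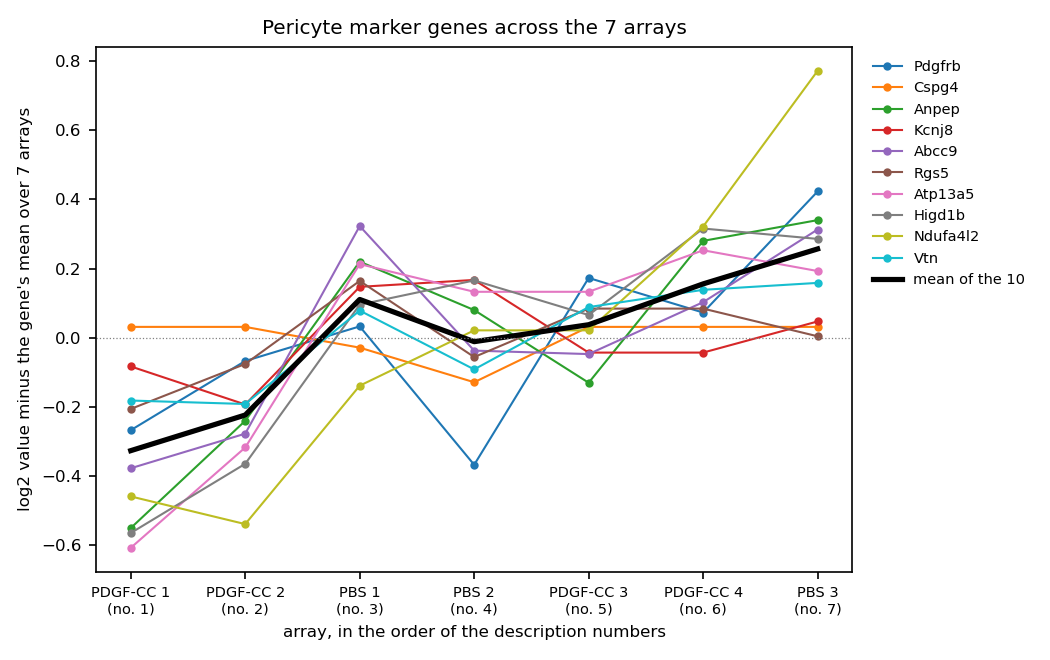
Log2 value of each pericyte marker gene minus its mean over the 7 arrays (vertical axis), with arrays in the order of their description numbers (horizontal axis) and the mean of the 10 genes in black. The mean is lowest in PDGF-CC array 1 (-0.33) and highest in PBS array 3 (+0.26), with PBS array 2 (-0.01) below PBS array 1 (+0.11).

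Within numbers 1 to 4 (PDGF-CC arrays 1 and 2 against PBS arrays 1 and 2), 9 of 10 differences were negative with a median of -0.37. Within numbers 5 to 7 (PDGF-CC arrays 3 and 4 against PBS array 3), 8 of 10 were negative with a median of -0.10, and the medians over all tested probe sets were -0.003 and 0.0. Atp13a5 was at -0.63 in the first part and -0.004 in the second, and Higd1b at -0.60 and -0.10. Abcc9 was at -0.47 and -0.28, Anpep at -0.545 and -0.27, Kcnj8 at -0.30 and -0.09 and Vtn at -0.18 and -0.04. Rgs5 was at -0.19 and +0.08 and Cspg4 at +0.10 and 0.0, whereas Ndufa4l2 was at -0.44 and -0.60 and Pdgfrb at -0.002 and -0.30. By a limma test of the difference between the parts, added after these values were seen, 0 of the 10 genes passed (0 of 17734 probe sets over all, adjusted p of at least 0.774 for the 10). At an unadjusted p under 0.05, 2 of 10 did (Atp13a5 and Higd1b), against 6.28% of tested probe sets. Every PDGF-CC number precedes every PBS number within each part, so treatment and the order within a part cannot be told apart.

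The genes varied more from array to array than most, and together. Their residual SD (the spread within groups) had a median of 0.245, against 0.128 over all tested probe sets, and 6 of 10 were above the 80th percentile. Ndufa4l2 was at percentile 98.2 of this spread, and Cspg4 at percentile 8.28. Of the 45 pairs of genes, 39 had a positive Pearson r over the 7 arrays, with a median of 0.67 (Spearman 0.61), and 14 exceeded 0.8. With the group means removed the median over pairs was 0.69. Without that removal, the median between these genes and the other tested probe sets with any variation was 0.07, to be set beside 0.67. That median takes in coefficients of both signs, so it can hide probe sets that vary along the same arrays. On component 1 of all tested probe sets (28.5% of variance), PDGF-CC arrays 1 and 2 (-24.4 and -10.7) lay opposite PBS array 3 (14.9). The mean of the 10 genes had the same arrays at its ends, so this pattern was not confined to them. These coefficients describe 7 arrays that share their processing.

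Higd1b and Atp13a5 were the closest pair (r = 0.97), followed by Higd1b and Anpep (0.94) and Abcc9 and Anpep (0.93). The channel genes Kcnj8 and Abcc9 were at 0.67, but at 0.17 with the group means removed. Cspg4 held 5 of the 6 negative coefficients, the lowest being -0.74 with Kcnj8, and the other was Pdgfrb with Kcnj8 at -0.05. With the group means removed Cspg4 was at 0.85 with Pdgfrb, -0.51 with Kcnj8 and between 0.08 and 0.56 with the rest. Its values in the PDGF-CC arrays were all the same, so the latter coefficients draw on its PBS values alone. Over the 7 arrays Pdgfrb had its highest coefficients with Vtn (0.79) and Ndufa4l2 (0.69), and with the group means removed its highest was with Cspg4 (0.85).

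**Figure D4:**
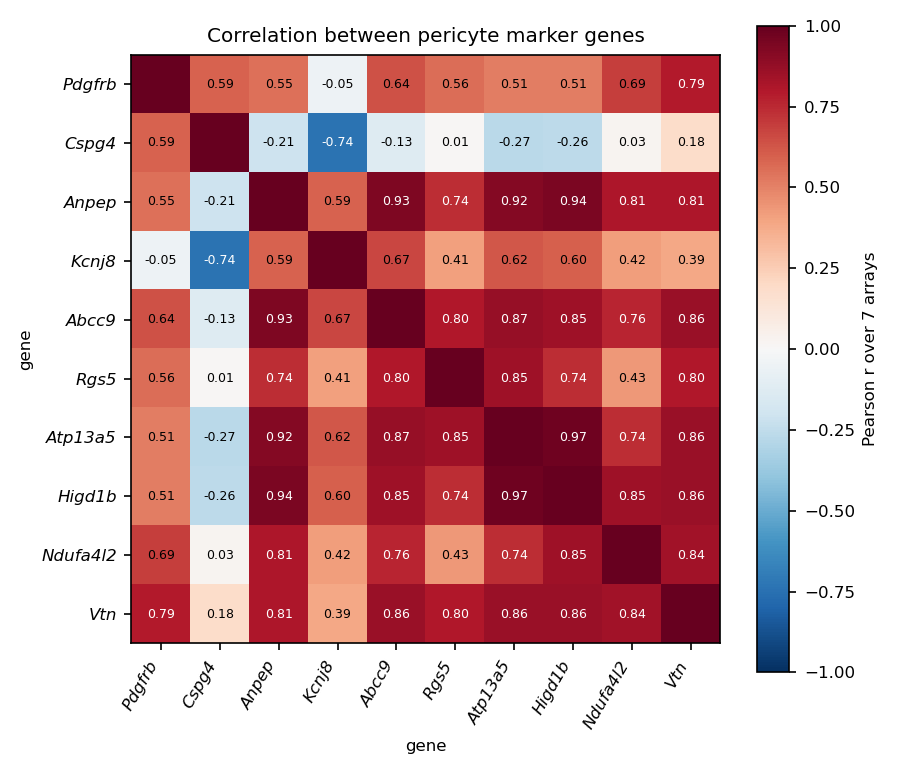
Pearson r over the 7 arrays for each pair of pericyte marker genes (both axes), from -1 (blue) to 1 (red). Anpep, Abcc9, Atp13a5, Higd1b and Vtn form a block with every r at 0.81 or above, while the row of Cspg4 runs from -0.74 to 0.59.

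A second list of pericyte genes was close to evenly split. Of its 29 measured genes, 17 were negative and 12 positive, with a median of -0.04, and 0 passed the adjusted threshold. At an unadjusted p under 0.05, 3.41% of tested probe sets were lower and 2.63% higher, shares that also apply to the lists below. In this list 0 were lower and 2 higher. These were Foxc1, a transcription factor of mural cell development, at +0.23 ± 0.095, and Cd248, which encodes the surface protein endosialin, at +0.21 ± 0.085. Cd248 ran against the 10 markers, from 9.38 in PDGF-CC array 1 to 8.92 in PBS array 3. Foxf2, another mural transcription factor, was at +0.30 ± 0.13 (+0.15 without PBS array 2), and the nucleotide-sugar receptor gene P2ry14 at -0.32 ± 0.13. Even so, the mean of this list over the arrays had an r of 0.82 with that of the 10 markers, in a narrower range from -0.11 (PDGF-CC array 1) to +0.10 (PDGF-CC array 4).

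The PDGF genes were mixed. Of 8 ligands, receptors and partners 4 were negative, none passed the adjusted threshold, and at an unadjusted p under 0.05 there were 2 lower (Plat and Nrp1) and 1 higher. The higher one was Pdgfb, the endothelial ligand of PDGFR-beta, at 8.38, 8.52, 8.40 and 8.51 in PDGF-CC arrays and 8.23, 8.24 and 8.31 in PBS arrays. Every PDGF-CC array lay above every PBS array, as in 1.8% of tested probe sets, with a difference of +0.20 ± 0.058 (limma adjusted p = 0.769). Pdgfra, the receptor gene for PDGF-CC, was at 3.84, 4.39, 4.91 and 4.59 in PDGF-CC arrays and 4.69, 4.68 and 5.22 in PBS arrays, near the filter, and its r with the mean of the 10 markers was 0.879. It differed by -0.43 ± 0.26, by -0.23 without PDGF-CC array 1. Pdgfa was at +0.11 ± 0.064, Pdgfc at +0.02 ± 0.054, Pdgfd at -0.06 ± 0.079 and Lrp1 at +0.16 ± 0.12.

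Of 24 measured genes for the recruitment and attachment of pericytes to endothelium, 9 were negative with a median of +0.05, and none passed the adjusted threshold. At an unadjusted p under 0.05, 3 were lower and 2 higher. S1pr1, an endothelial receptor for sphingosine-1-phosphate, was at 9.95, 10.33, 10.29 and 10.43 in PDGF-CC arrays and 10.97, 10.68 and 10.94 in PBS arrays. All PDGF-CC arrays lay below all PBS arrays, as in 2.5% of tested probe sets. The difference was -0.62 ± 0.13 (unadjusted p = 0.00199, adjusted p = 0.722 by limma). Within numbers 1 to 4 and 5 to 7 it was -0.69 and -0.585, values that were not tested against each other. Cdh2, which encodes N-cadherin, the junction protein between endothelium and pericytes, was at -0.43 ± 0.18. It was -0.23 without PBS array 2, -0.70 within numbers 1 to 4 and -0.04 within 5 to 7. The third was Lamb1, a laminin chain of the basement membrane, at -0.305 ± 0.12. The 2 higher ones were Pdgfb and Dll4, an endothelial Notch ligand, which was at +0.31 ± 0.10.

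Relatives of the 10 genes (paralogs, other inward rectifiers and a further pericyte aminopeptidase) were mixed. Of the 17 that were tested, 7 were negative with a median of +0.02, 1 was lower and 2 were higher at an unadjusted p under 0.05, and none passed the adjusted threshold. Kcnj11 and Abcc8, the KATP subunit genes typical of neurons and endocrine cells, were at -0.01 ± 0.11 and +0.025 ± 0.045, with intervals that leave their direction unknown. Kcnj2, which encodes the inward rectifier Kir2.1 of capillaries, was at 7.43, 7.35, 7.25 and 7.16 in PDGF-CC arrays and 7.0, 6.33 and 6.56 in PBS arrays. All PDGF-CC arrays were above all PBS arrays, as in 1.8% of tested probe sets, with +0.67 ± 0.16 (limma adjusted p = 0.769). Kcnj10, a glial inward rectifier gene, was at +0.14 ± 0.074.

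Rgs4, the neighbour of Rgs5 in the RefSeq gene order, was at -0.25 ± 0.16, at -0.53 within numbers 1 to 4 and +0.08 within 5 to 7. Rgs2 was at +0.35 ± 0.086, with its lowest PDGF-CC value (10.79) above its highest PBS value (10.73), while Rgs3 was at +0.07 ± 0.10 and Rgs16 at +0.24 ± 0.29. Higd1a, the widely expressed relative of Higd1b, was at -0.29 ± 0.11, Higd2a at +0.004 ± 0.085 and Ndufa4 at -0.10 ± 0.068. Atp13a1, Atp13a2 and Atp13a3 were at -0.03 ± 0.12, +0.08 ± 0.052 and +0.15 ± 0.12, and Atp13a4, the neighbour of Atp13a5, was below the filter. Enpep, which encodes the pericyte aminopeptidase A, was at -0.06 ± 0.15, and Cspg5 at +0.07 ± 0.16. Kcnj11, Higd2a, Atp13a1, Enpep, Cspg5, Rgs3, Pdgfc and Lrp1 changed sign when single arrays were left out.

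Of 15 measured genes of KATP channels and the control of pericyte contraction, 13 were negative with a median of -0.06, and none passed the adjusted threshold. At an unadjusted p under 0.05, 0 were lower and Kcnj2 alone was higher. Prkg1, the cyclic GMP-dependent kinase that relaxes mural cells, was at -0.22 ± 0.12, at -0.42 within numbers 1 to 4 and 0.0 within 5 to 7.

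Markers of other cell types differed in direction from list to list, and in each list below 0 genes passed the adjusted threshold. Smooth muscle genes, the closest mural relatives, had 11 of 14 positive and a median of +0.14. Synpo2 and Cnn1, actin-binding proteins of contractile cells, had all PDGF-CC values above all PBS values, as in 1.8% of tested probe sets. Their differences were +0.35 ± 0.091 and +0.21 ± 0.059. Per array the smooth muscle mean ran from -0.05 to +0.165 in the PDGF-CC group and from -0.25 (PBS array 1) to +0.08 in the PBS group. Perivascular fibroblast genes, which overlap with pericytes in Pdgfrb and Anpep, had 10 of 11 negative and a median of -0.06, with Dcn at -0.47 ± 0.14. Within numbers 1 to 4, 9 of 11 were negative (median -0.10), and within 5 to 7, 5 of 11 (median 0.0). Their mean ran from -0.11 to -0.01 in PDGF-CC and from +0.01 to +0.105 in PBS arrays.

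Endothelial markers had 11 of 17 negative and a median of -0.05, with array means from -0.08 to +0.06 in PDGF-CC and -0.09 to +0.13 in PBS. The 4 with the smallest p were Ly6c1 (-0.16 ± 0.074), Emcn (-0.15 ± 0.075), Egfl7 (+0.20 ± 0.10) and Slco1a4 (-0.13 ± 0.066). The endothelial mean had an r of 0.80 with the mean of the 10 pericyte markers, the fibroblast mean 0.73 and the smooth muscle mean 0.26. Oligodendrocyte and neuronal means ran the opposite way (r of -0.82 and -0.72), both highest in PDGF-CC array 1 at +0.20 and +0.10. A few genes carried these values: the myelin genes Mbp (6.98, against 5.49 to 5.98 elsewhere) and Cnp (5.72, against 5.06 to 5.35), and the synaptic gene Snap25 (5.99, against 4.99 to 5.52). The myelin gene Mal was lowest in that array (10.39) and had an r of 0.795 with the pericyte marker mean. Astrocyte and oligodendrocyte precursor means had an r of 0.58 and 0.46, microglia -0.07 and border macrophages -0.08. Microglial markers were positive in 11 of 12 with a median of +0.249, and at an unadjusted p under 0.05, 0 were lower and 4 higher. Their array means ran from +0.05 to +0.15 in PDGF-CC and from -0.45 (PBS array 2) to +0.015 in PBS. Choroid plexus markers had the median farthest from 0 of these lists, -0.765, with 10 of 10 negative. Of these, 9 were lower at an unadjusted p under 0.05 (3.41% of tested probe sets), and in 6 every PDGF-CC array lay below every PBS array (2.5%). Their array means ran from -0.705 to +0.11 in PDGF-CC and from +0.18 to +0.56 in PBS, with an r of 0.47. The part of these other cell types in the pericyte values was not tested.

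**Figure D5:**
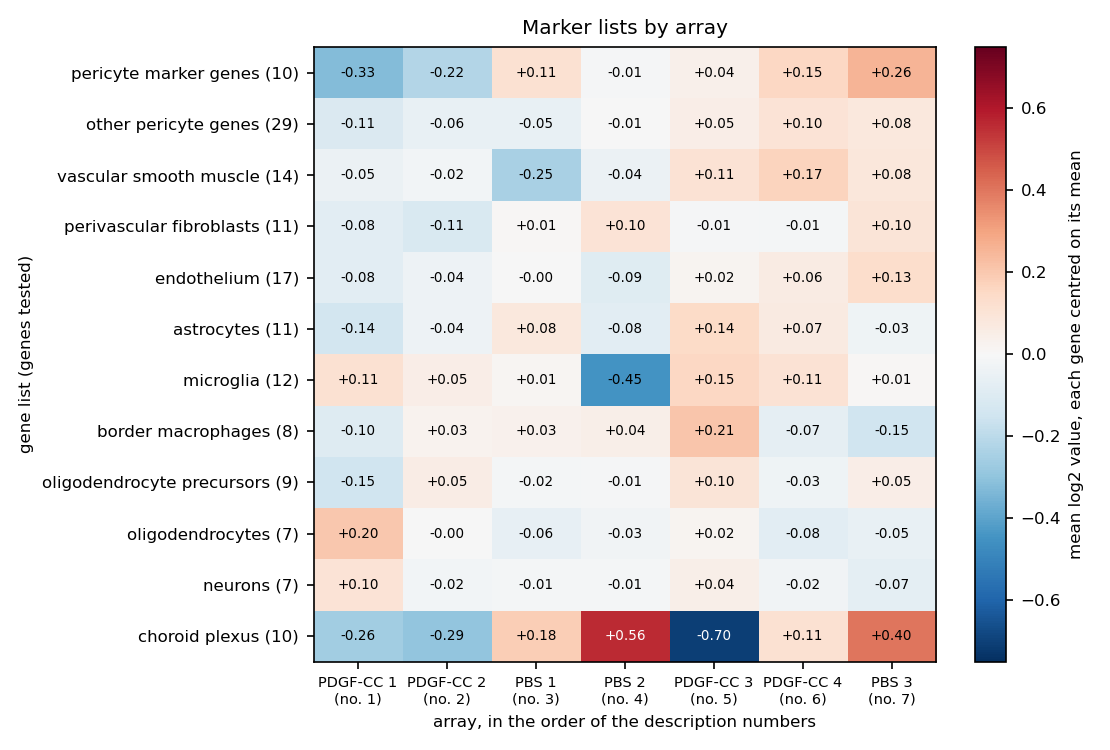
Mean log2 value of each marker list (rows, with the number of genes tested) in each array (columns, in the order of the description numbers), with each gene centred on its mean over the 7 arrays. The pericyte marker genes are lowest in PDGF-CC arrays 1 and 2 (-0.33 and -0.22), where the endothelial list is at -0.08 and -0.04 and the oligodendrocyte list at +0.20 and -0.001.

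The genes whose values over the 7 arrays were most like the mean of the 10 markers were Gpr37l1, an orphan receptor of glia (Pearson r = 0.982, Spearman rho = 0.96), and Gltp, a glycolipid transfer protein (0.978 and 0.96). They were followed by Mospd2 (0.977 and 0.94), the organic cation transporter gene Slc22a4 (0.975 and 0.96) and Ric1 (0.974 and 0.95). Those most opposite were Gnb3 (-0.975 and -0.93), Sctr (-0.968 and -0.91), Tmem91 (-0.967 and -0.89), Gm17764 (-0.965 and -0.91) and 4931403M11Rik (-0.963 and -0.96). These were the extremes of 15555 genes and are given as a description. An r above 0.8 was reached by 4.8% of those genes, by 7 of 29 second-list pericyte genes, 6 of 17 endothelial markers and 3 of 14 smooth muscle genes. Gpr37l1 was at 5.92, 6.04, 6.28 and 6.33 in PDGF-CC arrays and 6.36, 6.15 and 6.43 in PBS arrays, with PDGF-CC arrays 1 and 2 again the lowest.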

How the data were processed

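RNA of 7 samples was hybridised to 1 array each. Whole-transcript amplification and biotin labelling started from 10 ng of RNA, per the labels' protocols. The deposited values are log2 intensities already normalized between arrays, judged from their range and near-equal quantiles. The submitters' processing notes list RMA, limma and Affymetrix Expression Console; for their versions, settings and genome build, the sources used here give nothing. Such normalization brings the distributions close to equal and removes differences in overall RNA. Repeating quantile normalization on the tested probe sets still moved some bright genes, with Rgs5 going from -0.07 to +0.0032 and Slco1a4 from -0.13 to -0.07. Arrays give no read depth, and their number limits the precision.

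Probe sets were named from the platform annotation: of 33793, 23521 had 1 symbol, 1814 several and 8458 none, and none is named from several. Those with any symbol whose mean exceeded the 30th percentile (17734) were tested for PDGF-CC minus PBS with lmFit and eBayes of limma 3.58.1 (R 4.3.3), 2-sided, without covariates, adjusted by Benjamini-Hochberg over all of them at 0.05. The fit was tested on simulated data. The 10 genes, the 16 other lists and the motifs were chosen with earlier results of these data known. Besides the 10 genes, the rule named all PDGF genes and relatives of the members, up to 4 genes with the smallest p of any other list, and the 5 genes most like and most unlike the mean of the members. Where array means of lists or array order are compared, this is a description. Figures were drawn with matplotlib 3.10.9.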

Additional observations from a re-analysis of the deposited data

How the results depend on the processing

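None of the 10 genes passed the adjusted threshold under any of the 18 alternatives run, and between 8 and 9 of the 10 differences were negative. The median difference of the 10 lay between -0.33 and -0.17. Over all tested probe sets, 3 passed when the brightness filter was raised to the 50th percentile, with arrays centred on their median, with a trended and robust prior and with the mean of a gene's probe sets, 1 with repeated quantile normalization, and 0 to 1 when single arrays were left out. The count of members lower at an unadjusted p under 0.05 was 1 with description number as covariate (3.2% of tested probe sets lower), 6 with blocks for the arrays numbered 1 to 4 and 5 to 7, and 1 to 4 when single arrays were left out.

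With the number in the title as a replicate block, which drops PDGF-CC array 4 from the estimate, 6 members were lower at an unadjusted p under 0.05, as were 3.8% of tested probe sets, and 0 passed the adjusted threshold. Same-numbered arrays deviated together at r of 0.163, 0.107 and 0.0844. PBS array 3 correlated best with PDGF-CC array 4 (0.32), whereas each of the other PBS arrays did so with its same-numbered PDGF-CC array. The main fit did not take the numbers as pairs, and whether they mark pairs was not tested.

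Signs turned for Rgs5 with repeated quantile normalization (0.0032), for Pdgfrb, Kcnj11 and Enpep with description number as covariate (+0.06, +0.01 and +0.03), for Kcnj11 and Higd2a with array weights (+0.02 and -0.02) and for Higd2a with the block of description numbers (-0.01). Without both outlying arrays, an alternative chosen after seeing the data, Lrp1, Rgs3 and Higd2a were at -0.03, -0.07 and -0.10. When single arrays were left out, Pdgfrb ran from -0.25 to +0.14, Kcnj11 from -0.12 to +0.08, Higd2a from -0.08 to +0.10, Enpep from -0.16 to +0.04, Atp13a1 from -0.16 to +0.05, Cspg5 from -0.06 to +0.16, Pdgfc from -0.01 to +0.04, Lrp1 from -0.0032 to +0.25 and Rgs3 from -0.06 to +0.16. The cause was not tested.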

Other observations

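A list of hypoxia genes, holding known targets and the factor genes Hif1a, Epas1 and Hif3a, gave 13 of 13 negative differences. They ran from -0.57 to -0.004 with a median of -0.08, and none passed the adjusted threshold. Ndufa4l2, a known hypoxia target, was not counted in this list. Of the 13, 4 were lower and 0 higher at an unadjusted p under 0.05, beside 3.41% and 2.63% of tested probe sets. Pfkfb3, an activator of glycolysis, was at -0.57 ± 0.15, the mitophagy receptor gene Bnip3 at -0.43 ± 0.15, Hif3a at -0.40 ± 0.16 and Higd1a at -0.29 ± 0.11. The list median was -0.22 within description numbers 1 to 4 (12 of 13 negative) and -0.006 within 5 to 7 (7 of 13 negative). Per array its mean was lowest in PDGF-CC array 1 (-0.21) and highest in PBS array 2 (+0.195), an order that had an r of 0.45 with the mean of the 10 pericyte markers.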
